A study of Gallus gallus with 6 samples.

Results

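The miR-33 and miR-122 sequences of breeder cock testes were described here, in 6 small RNA libraries. Members were found by name in the table of miRNAs: after the species prefix and any mark of a changed length or base were dropped, names that read miR-33 or miR-122 were kept, with any letter, arm or locus number. This gave 8 lines, which held 5 distinct sequences of the 1151 in the table, 3 of miR-33 and 2 of miR-122. Each library came from the left testis of a Cobb500 breeder cock at 40 weeks of age. In the APS group, 3 birds had been fed Astragalus polysaccharide, a plant polysaccharide mixture, at 10 g per kg of a corn and soybean feed, and in the control group 3 birds had received the same feed without it. The labels and the study's methods differ in the number of birds reared, the RNA extraction and the sequencer, and both took the sequenced testes from separate replicates. Testis is a mixture of germ cells, supporting cells, vessels and blood, so fewer cells that carry a miRNA and less of it per cell cannot be told apart.

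A miRNA hairpin is cut into a duplex of 2 strands, one from its 5′ arm (5p) and one from its 3′ arm (3p). The strand loaded more often into the silencing complex is called the guide and the other the passenger. miR-33 is encoded within introns of the genes for sterol regulatory element-binding proteins, the transcription factors that switch on cholesterol and fatty acid synthesis. In mammals its guide strand represses ABCA1, a transporter that exports cholesterol from cells, and its passenger strand has also been tied to genes of fatty acid oxidation. miR-122 is the dominant miRNA of hepatocytes, and in mice its loss lowers cholesterol and fatty acid synthesis. Outside the liver it is typically scarce. In testis, cholesterol is the precursor of testosterone and a component of sperm membranes.

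The sequences are printed below because the results turn on which strand of a hairpin was read and on how the forms differ in length. Each runs 5′ to 3′ as in the table of values, with T for U, and capitals mark the seed, bases 2 to 8, which pairs with target transcripts.
gga-miR-33-5p: gTGCATTGtagttgcattgc
ssa-miR-33a-5p: gTGCATTGtagttgcattgcaat
gga-miR-33-3p: cAATGTTCctgcagtgcagtat
gga-miR-122-5p: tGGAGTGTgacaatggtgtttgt
gga-miR-122-3p: aACGCCATtatcacactaaat

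The chicken miR-33 guide strand was listed at 20 nt. The entry named after salmon, ssa-miR-33a-5p, was the same 20 bases with 3 more at the 3′ end, so the 2 forms share a seed and differ only in length. No other sequence of the table carried that seed. The passenger strand of miR-33 was listed at 22 nt, and its name marks 1 base more than the database form at each end. The added 5′ base moves the seed by 1 position, from ATGTTCC in the shorter form to AATGTTC in the form counted here. No sequence of the table had the unshifted seed, and no other had the shifted one. The seed of gga-miR-122-5p was shared by 1 other sequence, gga-mir-1665-p3, which had 1 count in the 6 libraries together.

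The guide strands gga-miR-33-5p and gga-miR-122-5p and the strand gga-miR-122-3p each stood on 2 lines with equal values, and gga-miR-33-3p and ssa-miR-33a-5p on 1 line each. In the RefSeq gene table of the assembly GRCg7b, 1 of the miR-33 hairpins lies inside SREBF2 and the other inside SREBF1, the genes for the sterol-regulated transcription factors described above. RefSeq places 1 miR-122 hairpin on chromosome Z, next to the coding gene ALPK2, and the other on chromosome W, which cocks do not carry. The equal values of 2 lines are the reads of 1 sequence divided between them, so they do not measure how much each hairpin gave. Lines of a sequence were therefore summed, and values below are for whole sequences.

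The miRNA counts of the APS libraries summed to 576714 to 721285 and those of the control libraries to 497286 to 743187, so that 3 counts, about the one-sided 95% limit on a count of 0, corresponded to 4.04 to 6.03 CPM of the plain totals. CPM are counts per 1000000 of the library total, and the levels below use totals adjusted by edgeR's TMM factors, so they compare libraries, while the CPM of different sequences also depend on how well each is captured. The range for 3 counts holds for a single library on plain totals, so beside group means of adjusted levels it is only a rough guide. Of the 1151 sequences, 774 reached a mean of 1 or more in the deposited normalized values of one group or the other and were tested. All 5 members were among them, ssa-miR-33a-5p through the control group only. miR-202, an abundant miRNA of the gonads, summed to 40046 to 56230 CPM in the APS libraries and 44247 to 66477 CPM in the control libraries, so the libraries carried a marker of the gonad. The miR-34b, miR-34c and miR-449 sequences of meiotic and later germ cells (11 sequences) summed to 1205 to 1377 CPM in the APS libraries and 819 to 990 CPM in the control libraries, without overlap. That gap came from 1 sequence, gga-miR-34b-5p, at 886 ± 76.0 CPM in APS and 580 ± 59.1 CPM in control libraries (SD, n = 3 each, edgeR, unadjusted p = 0.00619, adjusted p = 0.690), and the other 10 summed to 314 to 426 CPM in APS and 295 to 360 CPM in control libraries. The other 8 germ cell sequences tested overlapped between the diets, and over the 9 tested 7 had a log2 fold change above 0 and 2 below. The striated muscle list summed to 2860 to 4333 CPM in APS and 3449 to 3842 CPM in control libraries, nearly all of it gga-miR-499-5p. Its other 10 sequences summed to 210 to 253 CPM in APS and 226 to 294 CPM in control libraries, and miR-206 was not among the listed names. gga-miR-1a-3p, in a form whose name marks a changed base at position 2, had 6.70 ± 2.01 CPM in APS and 1.71 ± 1.80 CPM in control libraries (SD, n = 3 each, edgeR, unadjusted p = 0.0726, adjusted p = 0.690) without overlap. Its control mean lay below the 4.04 to 6.03 CPM that 3 counts make up, and its APS mean just above. The study selected gga-miR-34b-5p and gga-miR-1a-3p on these libraries, so their directions here are not independent evidence. Over all 774 sequences tested, the groups did not overlap in 13.0%.

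The miR-33 guide strand differed between the diets by less than its spread between libraries. gga-miR-33-5p had 168, 174 and 203 counts in the APS libraries and 161, 181 and 150 counts in the control libraries. Scaled, these were 282, 267 and 302 CPM in APS and 288, 280 and 273 CPM in control libraries, and the highest and the lowest value both fell in the APS group. The mean was 284 ± 17.5 CPM in APS and 280 ± 7.44 CPM in control libraries (SD, n = 3 each), ranking 111 of the 774 sequences by mean CPM. On the log2 scale, APS over control was 0.02 with a standard error of 0.18 and a 95% interval from -0.39 to 0.43 (edgeR quasi-likelihood test, adjusted p = 0.971). The interval, from 0.761-fold to 1.34-fold, leaves room for a modest change in either direction. Over all 6 libraries the coefficient of variation of this strand was 4.31%, below the 7.61% that counting error alone gives at its mean of 173 counts.

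The passenger strand of miR-33 was lower in the APS libraries, though its difference did not pass the test over all sequences. gga-miR-33-3p had 51, 50 and 66 counts in the APS libraries and 66, 79 and 68 counts in the control libraries, which were 85.5, 76.8 and 98.2 CPM in APS against 118, 122 and 124 CPM in control. All 3 APS libraries lay below all 3 control libraries, with a gap between 98.2 CPM in APS replicate 3 and 118 CPM in control replicate 1. The mean was 86.8 ± 10.8 CPM in APS and 121 ± 2.95 CPM in control libraries (SD, n = 3 each). Its log2 fold change of -0.48 had a standard error of 0.22 and a 95% interval from -0.99 to 0.02 (edgeR, unadjusted p = 0.0582, adjusted p = 0.690), and a two-sided exact permutation test of the 6 values gave p = 0.1, the smallest that 3 libraries against 3 allow. The same order held in the deposited normalized values, at 52.4 ± 5.65 in APS and 74.8 ± 3.61 in control libraries (SD, n = 3 each). gga-miR-33-3p is one of the miRNAs that the study selected on these libraries, so its direction here is not independent evidence. Marker miRNAs of other cells that differed in the same libraries are given above with the library totals and below with the miR-122 results. Their part in the lower gga-miR-33-3p was not tested.

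The lack of overlap between the groups is common in this table. It was found in 13.0% of the 774 sequences, in 7.11% with APS lower, and in 16.8% of the 197 sequences with a mean of at least 50 counts. In edgeR, 5.94% of the sequences tested reached an unadjusted p under 0.05 (2.45% of all higher in APS and 3.49% of all lower), and 0 passed an adjusted p under 0.05 (46 at an unadjusted p under 0.05 in edgeR, 23 with 0 adjusted calls in DESeq2's Wald test). Among the 5 members, 1 had groups that did not overlap and 0 had an unadjusted p under 0.05.

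**Figure D1:**
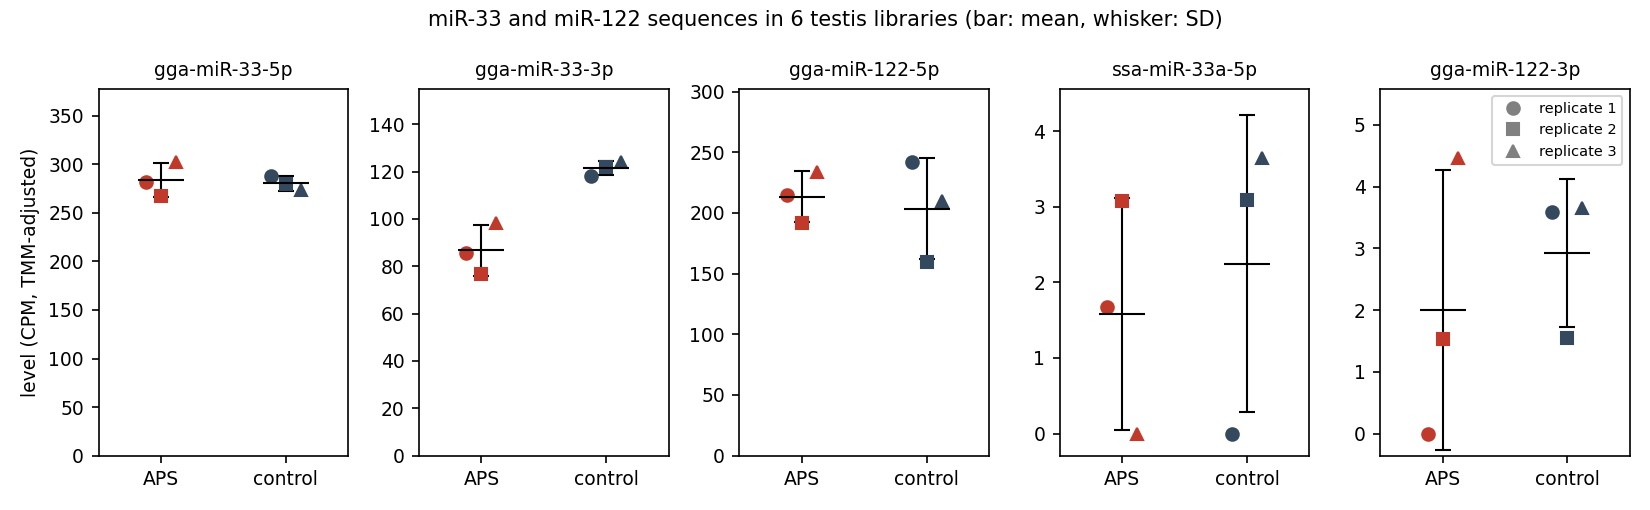
Level of each miR-33 and miR-122 sequence in CPM (y axis, TMM-adjusted, separate scale per panel) in the APS and control libraries (x axis), 1 point per library with the shape giving the replicate, a bar at the mean and a whisker of 1 SD. gga-miR-33-3p is the member whose APS points, 76.8 to 98.2 CPM, all lie below the control points, 118 to 124 CPM, while the other 4 overlap.

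**Figure D2:**
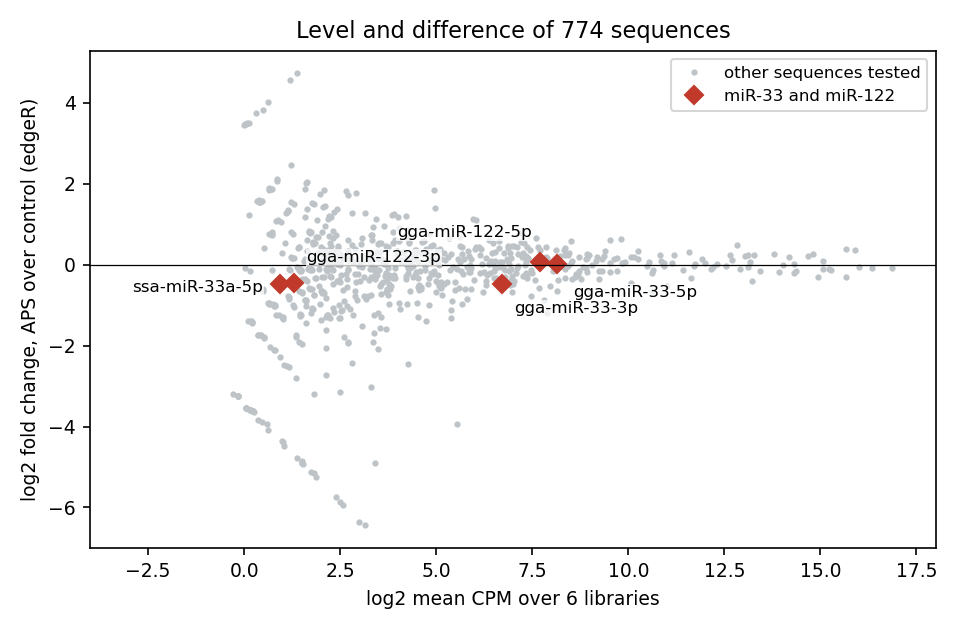
Log2 fold change of APS over control from edgeR (y axis) against log2 mean CPM (x axis) for the 774 sequences tested, with the 5 miR-33 and miR-122 sequences as red diamonds. gga-miR-33-5p at 0.02 and gga-miR-122-5p at 0.07 lie near 0, gga-miR-33-3p lies at -0.48, and the 2 rare forms lie at the left, where sequences of few counts spread widely.

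Since both strands of a hairpin are read in 1 library, their ratio does not depend on how libraries are scaled. The 3p strand made up 23.3%, 22.3% and 24.5% of the gga-miR-33 counts of the APS libraries, against 29.1%, 30.4% and 31.2% in the control libraries. Every APS share lay below every control share, and the spread within a group was near 1 percentage point, with means of 23.4% ± 1.11 in APS and 30.2% ± 1.07 in control libraries (SD, n = 3 each). Single libraries were less certain than that, as the 95% Clopper-Pearson interval of APS replicate 3 ran from 19.5% to 30.1% and that of control replicate 1 from 23.3% to 35.4%. Summed over a group, the share was 23.5% of 712 counts in APS (95% interval 20.4% to 26.7%) and 30.2% of 705 counts in control libraries (26.8% to 33.8%). These intervals cover counting error only, since PCR-amplified reads without molecular tags are not independent molecules.

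Expressed as a ratio, gga-miR-33 gave 3.29, 3.48 and 3.08 guide counts per passenger count in the APS libraries and 2.44, 2.29 and 2.21 in the control libraries. The log2 ratio of 5p over 3p averaged 1.70 ± 0.09 in APS and 1.20 ± 0.07 in control libraries (SD, n = 3 each). Its difference was 0.50 with a standard error of 0.16 and a 95% interval from 0.13 to 0.87, a 1.42-fold higher ratio in APS (limma on the log2 ratios of 38 hairpins, unadjusted p = 0.0148, adjusted p = 0.283). The two-sided exact permutation test again gave p = 0.1, its smallest value. The difference in the ratio rests on the same passenger counts as the difference in level above, so the 2 are a single observation.

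Set against other hairpins, the shift of the miR-33 arms had the smallest p but did not pass the adjustment, and shifts of this kind were not rare. Of the 82 chicken hairpins with both arms listed, 38 had a mean of at least 5 counts per library in each arm and were tested. The groups did not overlap in 23.7% of them, and in 18.4% the ratio of 5p over 3p was the higher one in APS, as in gga-miR-33. In 2 pairs, gga-miR-30a with gga-miR-30e and gga-miR-130a with gga-miR-130c, both hairpins had the same rounded counts, and with each pair taken once the groups did not overlap in 8 of 36, in 6 of them with the ratio higher in APS, and gga-miR-33 had an adjusted p of 0.285 in limma. An unadjusted p under 0.05 was reached by 13.2% and an adjusted p under 0.05 by 0 hairpins in limma (5 at an unadjusted p under 0.05), and by 1, gga-miR-199, named after its values were seen, in an edgeR fit of arm and diet together. In that fit gga-miR-33 had a difference of 0.50 (unadjusted p = 0.0201, adjusted p = 0.153). By the size of the difference gga-miR-33 ranked 5 of 38, and the median difference over the hairpins was -0.05.

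**Figure D3:**
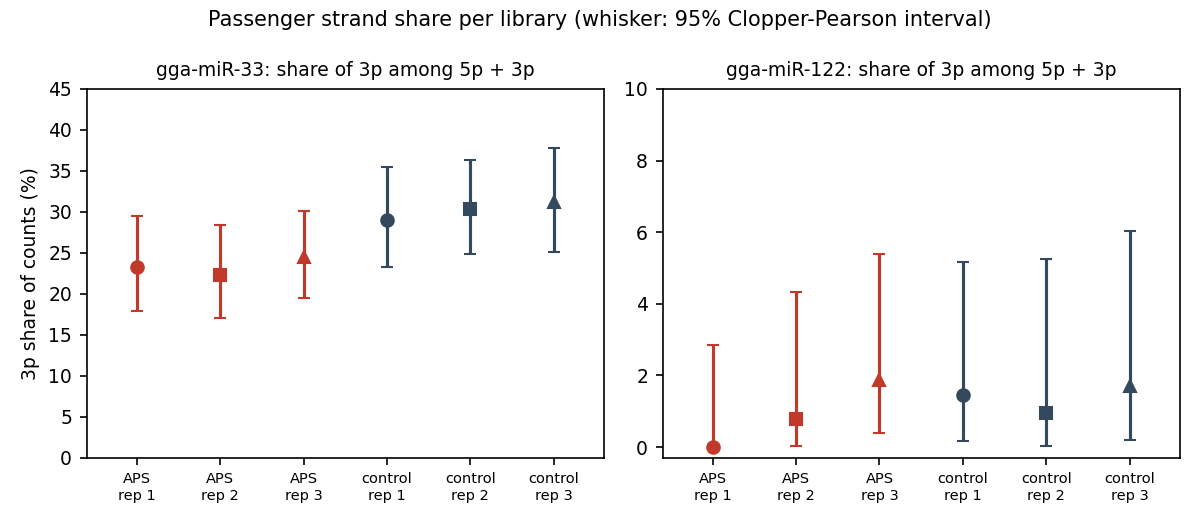
Share of the 3p strand among the 5p and 3p counts of a hairpin in percent (y axis) per library (x axis), for gga-miR-33 and gga-miR-122, with 95% Clopper-Pearson intervals as whiskers. The gga-miR-33 shares were 22.3% to 24.5% in APS and 29.1% to 31.2% in control libraries with overlapping intervals, and the gga-miR-122 shares stayed at or below 1.88%.

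**Figure D4:**
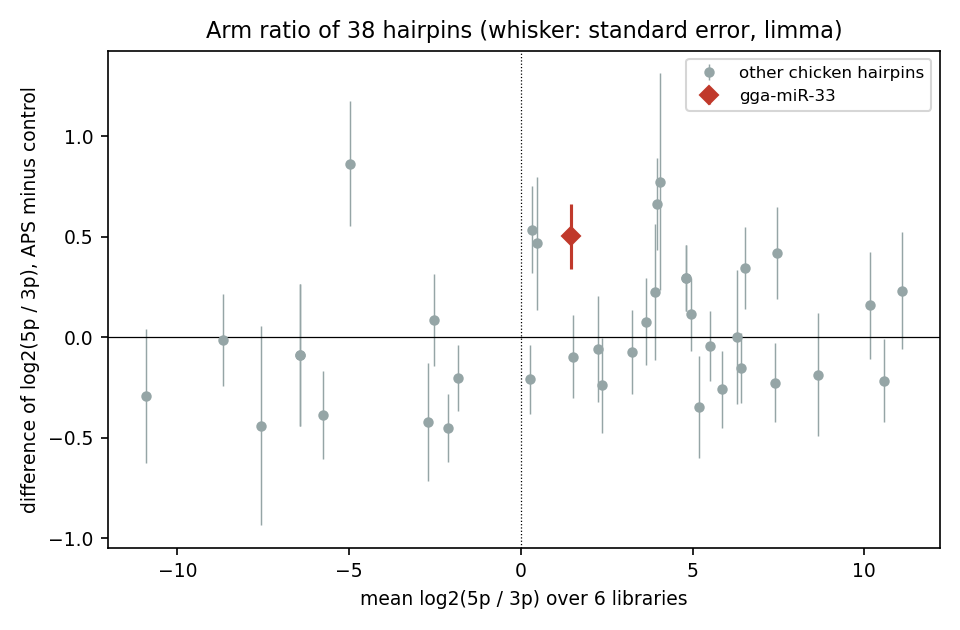
Difference of the log2 ratio of 5p over 3p, APS minus control (y axis), against its mean over the 6 libraries (x axis) for 38 chicken hairpins, with whiskers of 1 standard error from limma. gga-miR-33 (red) lies close to the vertical line of equal arms, at 1.45, with a difference of 0.50, and 4 other hairpins have a larger difference in size.

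gga-miR-33 was also one of the more balanced hairpins of the testis on both diets. Its passenger strand made up 26.8% of 1417 counts over the 6 libraries (95% interval 24.5% to 29.2%), and its mean log2 ratio of 1.45 was the 4th smallest in size of the 38, where the median size was 4.97. The 5p counts may come from both miR-33 hairpins while the 3p name stood on 1 line, so the ratio is one of sequences and not of a single hairpin.

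The longer form of the miR-33 guide was rare and did not separate the diets. ssa-miR-33a-5p had 1, 2 and 0 counts in the APS libraries and 0, 2 and 2 counts in the control libraries. It made up 7 of the 1044 miR-33-5p counts, 0.670% (95% Clopper-Pearson interval 0.270% to 1.38%), and where it had no count the same kind of interval reached up to 1.80% in APS replicate 3 and 2.27% in control replicate 1. The mean share was 0.576% ± 0.568 in APS and 0.803% ± 0.704 in control libraries (SD, n = 3 each), with overlapping groups (two-sided exact permutation test, p = 0.8). Of the 2 listed forms, the 20-nt form therefore held nearly all counts in every library. The study's matching allowed changes of length at both ends, and no form of a length between these 2 was listed. The mix of lengths among the reads themselves was thus not measured. The log2 fold change of ssa-miR-33a-5p, -0.48, had a standard error of 1.35 (edgeR, adjusted p = 0.939), so a difference was not detectable at this depth. Its deposited normalized values averaged 0.967 in APS and 1.40 in control libraries. It was thus tested through the control group only, and the sign of its fold change followed from that limit.

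miR-122, the liver miRNA, was present in testis at a level in CPM next to that of miR-33, and its guide strand did not separate the diets. gga-miR-122-5p had 128, 125 and 157 counts in the APS libraries and 135, 103 and 115 counts in the control libraries, which were 214, 192 and 234 CPM in APS and 242, 159 and 210 CPM in control. The control group held both the highest value, in replicate 1, and the lowest, in replicate 2. The mean was 213 ± 20.9 CPM in APS and 203 ± 41.6 CPM in control libraries (SD, n = 3 each), rank 124 of 774 by mean CPM. Its log2 fold change, 0.07 with a standard error of 0.23, had a 95% interval from -0.44 to 0.58 (edgeR, adjusted p = 0.940). Without control replicate 2 it was -0.10, and without APS replicate 3 it was -0.0022. Its coefficient of variation over the 6 libraries, 14.4%, was above the 8.87% expected from counting at a mean of 127 counts.

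The passenger strand of miR-122 was close to the detection limit. gga-miR-122-3p had 0, 1 and 3 counts in the APS libraries and 2, 1 and 2 counts in the control libraries, 9 counts against 763 of the guide strand. It therefore made up 1.17% of the gga-miR-122 counts (95% interval 0.534% to 2.20%), against the 26.8% of the miR-33 passenger. The summed share was 0.966% in APS (95% interval 0.264% to 2.46%) and 1.40% in control libraries (0.455% to 3.23%). Its log2 fold change of -0.45 had a standard error of 1.15 (edgeR, adjusted p = 0.939), and the hairpin had too few passenger counts for the arm test. With a limit of 1 count it had a difference of 0.83 in the log2 ratio, with a standard error of 0.65 and an adjusted p of 0.660 in limma.

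Within every library the miR-33 guide had more counts than the miR-122 guide. The ratio of gga-miR-33-5p to gga-miR-122-5p was 1.31, 1.39 and 1.29 in the APS libraries and 1.19, 1.76 and 1.30 in the control libraries. The means were 1.33 ± 0.05 in APS and 1.42 ± 0.30 in control libraries (SD, n = 3 each), with the APS values inside the control range (difference of the log2 ratio -0.07, two-sided exact permutation test, p = 0.9). In both groups gga-miR-33-3p stood next in the order of levels, below gga-miR-122-5p in all 6 libraries, and the 2 rare forms followed at a mean of 2.46 CPM for gga-miR-122-3p and 1.91 CPM for ssa-miR-33a-5p, whose order was not fixed by so few counts.

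miR-122 is a marker of liver cells, and blood carries miRNAs of its own, so the other markers of these tissues were read beside it. The other liver and gut miRNAs (miR-192, miR-194 and miR-215, 6 sequences) summed to 265, 118 and 123 CPM in the APS libraries and 218, 518 and 126 CPM in the control libraries. The highest sum was in control replicate 2, the library with the lowest gga-miR-122-5p. miR-192 was listed only under the name of another species, as cfa-miR-192, and was near 0, at 2.50 CPM in APS and 3.18 CPM in control libraries. gga-miR-215-5p, the most abundant of that list, was at 130 ± 67.8 CPM in APS and 223 ± 157 CPM in control libraries, with overlap (SD, n = 3 each). All 5 tested sequences of this list had a log2 fold change below 0, with a median of -0.78, against -0.08 over all 774 sequences. Of these 5, aca-miR-194-5p and tgu-miR-194-3p (0.512 CPM in APS and 2.14 CPM in control libraries) passed the limit for testing through the control group only. That limit fixed their sign, so 5 of 5 below 0 is not evidence of a joint fall. aca-miR-194-5p, listed under the name of another species, was at 0 in every APS library and at 3.94 ± 1.87 CPM in the control libraries (SD, n = 3, edgeR, unadjusted p = 0.0284, adjusted p = 0.690). That control mean lay below the 4.04 to 6.03 CPM that 3 counts make up. gga-miR-194, the chicken entry, was at 35.7 ± 19.8 CPM in APS and 54.6 ± 40.3 CPM in control libraries, with overlap (SD, n = 3 each, edgeR, unadjusted p = 0.301, adjusted p = 0.809). The red cell list (miR-451, miR-144 and miR-486, 5 sequences) summed to 134 to 260 CPM in APS and 150 to 292 CPM in control libraries. miR-451 was listed only under the name of another species, as ssc-miR-451, at 3.20 CPM in APS and 3.60 CPM in control libraries. Of the 4 tested sequences of the red cell list, 1 was above 0 and 3 below in log2 fold change. cgr-miR-486-5p, a miRNA of red cells, had 2.11 ± 1.84 CPM in APS and 11.9 ± 9.78 CPM in control libraries without overlap (SD, n = 3 each, edgeR, unadjusted p = 0.0245, adjusted p = 0.690). The cgr-miR-486-5p sequence was also listed under the name of another species. Its APS mean lay below the 4.04 to 6.03 CPM that 3 counts make up, and its control SD was close to its control mean. Whether its reads came from chicken red cells was not tested. The white cell list (miR-142, miR-223, miR-155 and miR-150, 7 sequences) summed to 1333 to 1572 CPM in APS and 1044 to 2054 CPM in control libraries, and all 4 tested sequences had a log2 fold change below 0, each with overlapping groups. The summed ranges of the diets overlapped in each of these 3 lists. In the liver and gut and the red cell list, 1 sequence each was lower in APS without overlap, aca-miR-194-5p and cgr-miR-486-5p. The direction of aca-miR-194-5p was fixed in advance, since only its control values brought it into the test. Both of these list sequences had an APS mean below the CPM that 3 counts make up. Over all 774 sequences tested, 7.11% were lower in APS without overlap, and both list sequences were named after their values were seen. The part of liver, gut, red or white cells in the miR-33 and miR-122 levels was not tested.

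Other miRNAs tied to cholesterol or fat metabolism in mammals showed no call in either direction. Of 16 such miRNA numbers, 15 were listed, with 18 distinct sequences, of which 11 were tested. These are guide strands except for miR-301b, listed by its 5p strand alone, at 0 in every library. miR-144 and miR-223 of this list also stand in the red and white cell lists above. Of these 11, 8 lay above 0 and 3 below 0 in log2 fold change, 0 rose and 0 fell at an unadjusted p under 0.05 in edgeR (with 0 at an adjusted p under 0.05 in edgeR or DESeq2), and the median was 0.08, against -0.08 over all 774 sequences. The most abundant were gga-miR-26a-5p, gga-miR-148a-3p and gga-miR-30c-5p. gga-miR-26a-5p, which represses ABCA1 in mammalian cells, was at 64526 ± 13009 CPM in APS and 66761 ± 22112 CPM in control libraries (SD, n = 3 each). gga-miR-148a-3p, which targets the LDL receptor in mice and human cells, was at 35273 ± 2594 CPM in APS and 33280 ± 3271 CPM in control libraries, and gga-miR-30c-5p, which lowers lipoprotein assembly in mice, at 31278 ± 3079 CPM in APS and 25942 ± 2888 CPM in control libraries. All 3 overlapped between the diets. The full list summed to 134596 to 161463 CPM in APS and 116092 to 168975 CPM in control libraries, with overlap. Without gga-miR-26a-5p, the other 17 sequences summed to 80414 to 82332 CPM in APS and 65922 to 77189 CPM in control libraries, without overlap. Most of that sum was gga-miR-148a-3p and gga-miR-30c-5p, and most of its gap in means was gga-miR-30c-5p, so it does not show a joint rise of the list. These sums were not tested. Of the 11, 1 did not overlap, hsa-miR-96-5p, at 33.7 ± 4.54 CPM in APS and 24.5 ± 2.50 CPM in control libraries (SD, n = 3 each, edgeR, unadjusted p = 0.166, adjusted p = 0.701), named after its values were seen. Over all 774 sequences the groups did not overlap in 13.0%, so 1 of 11 does not set the lipid list apart.

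**Figure D5:**
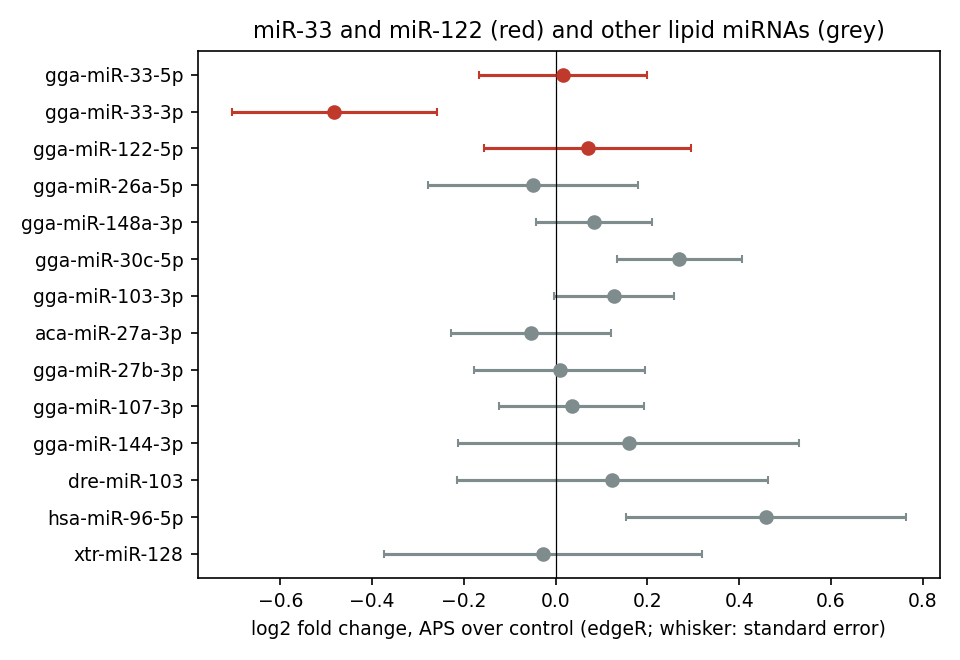
Log2 fold change of APS over control from edgeR (x axis) with whiskers of 1 standard error, for the 3 members with at least 50 counts on average (red) and the 11 tested miRNAs of the lipid list (grey), in order of level within the list (y axis). gga-miR-33-3p lies at -0.48, while 8 of the 11 grey points lie above 0.

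The sequences whose levels moved most like those of the members were sought among 196 others with a mean of at least 50 counts, by the mean absolute difference between centred log2 CPM profiles over the 6 libraries. Nearest to gga-miR-33-5p was gga-miR-107-3p, with a mean difference of 0.02, followed by gga-miR-130a-3p (0.04) and gga-miR-29b-3p (0.05), where the median candidate had 0.23. All 3 varied little between libraries, and gga-miR-107-3p was at 947, 875 and 994 CPM in APS and 906, 943 and 900.3 CPM in control libraries. Nearest to gga-miR-33-3p were gga-miR-218-5p (0.07), tgu-miR-9-3p (0.08) and gga-miR-32-5p (0.11), against a median of 0.35. gga-miR-218-5p had 298, 276 and 405 CPM in APS libraries and 397, 430 and 430.1 CPM in control libraries, so that APS replicate 3 fell inside the control range. Nearest to gga-miR-122-5p were gga-miR-34a-5p (0.10), the predicted PC-5p-14258_282 (0.11) and gga-miR-181a-3p (0.11), against a median of 0.28.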

How the data were processed

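The members and lists were chosen with earlier results of these data known. Small RNA was read in 6 testis libraries, 3 per diet. The authors removed adapters, junk and common RNA families with ACGT101-miR (version 4.2 per the labels) and matched sequences to miRBase precursors with 1 mismatch allowed. Their genome build was not given in the sources used here. Raw values are estimated counts as the authors deposited them, divided equally between lines that share a sequence. The deposited normalized values are a signal, the raw value times 1 constant per library. Columns of the authors' own comparison, a ratio of group means (fold change), the log2 of that ratio and a p-value, were deposited too and not used.

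Lines of a sequence were summed and rounded. Sequences whose normalized values averaged 1 or more in one group or the other (774 of 1151) were tested with edgeR 4.0.16 (TMM, quasi-likelihood, Benjamini-Hochberg over the 774, R 4.3.3). Standard errors are the log2 fold change over the square root of F. The count test replaces the study's test of each miRNA alone. Arm ratios, with 0.5 counts added to each arm, were fitted with limma 3.58.1 over 38 hairpins. Single values were compared by two-sided exact permutation in Python 3.11.15. Library totals were 497286 to 743187 counts. Replicates are separate testes, and p-values measure the spread between them. The scripts were tested on simulated counts. All members were named, with the 3 sequences of most similar profile for each member of at least 50 counts, and of the lipid list the 3 most abundant and any with an unadjusted p under 0.05. Alternatives were 1 row per name, no filter or at least 10 counts, DESeq2 1.42.0 size factors or Wald test, the deposited constants, limma on log2 normalized values, the replicate block, no gp3 sequences (a class of the study whose reads and precursors were not placed in the genome), each library left out, 1 count added or a limit of 1 count for arms, and an edgeR fit of arm and diet. Taking hairpins of equal counts once was chosen after seeing the data. The marker sequences named singly were also chosen after their values were seen.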

Additional observations from a re-analysis of the deposited data

How the results depend on the processing

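The lower level of gga-miR-33-3p kept its direction in 16 of 16 alternatives, with log2 fold changes from -0.58 to -0.43, and had an unadjusted p under 0.05 in 7 and an adjusted p under 0.05 in 0 (adjusted p from 0.627 to 0.992). The arm ratio of gga-miR-33 stayed higher in APS in 11 of 11, from 0.46 to 0.55, with an unadjusted p under 0.05 in 9 and adjusted p from 0.153 to 0.672, and leaving out single libraries gave the same range of 0.46 to 0.55. Leaving out APS replicate 2 or control replicate 2 raised its unadjusted p to 0.0596 or 0.0653 in limma. The replicate block, the limit of 1 count and equal hairpins taken once left the estimate of this ratio at 0.50 and changed only its p. All alternatives reuse the same 6 libraries, and where groups do not overlap, leaving out 1 library could hardly reverse a direction. The counts of alternatives for gga-miR-33-3p and the arm ratio are therefore not independent support. The log2 fold change of gga-miR-33-5p stayed near 0 and changed sign to -0.041 per name, -0.013 with at least 10 counts, -0.0032 with DESeq2 size factors, -0.012 with the deposited constants, -0.0030 in DESeq2's Wald test and -0.012 in limma with either pseudocount, and from -0.033 to 0.036 with single libraries left out. With single libraries left out, gga-miR-122-5p ranged from -0.098 to 0.21, ssa-miR-33a-5p from -1.32 to 0.070, gga-miR-122-3p from -1.63 to 0.055, the difference in the extended share from -0.628 to 0.0611 percentage points, and that of the log2 ratio of the guides from -0.18 to 0.095, so these signs rested on single libraries. Without a filter on low values 12 sequences had an adjusted p under 0.05 in edgeR, against 0, and none of them was a member. Counts at an unadjusted p under 0.05 were 84 without a filter, 20 with at least 10 counts and 23 in DESeq2's Wald test, against 46, the 20 from fewer sequences tested. The edgeR fit of arm and diet called 1 hairpin, against 0. The cause of these differences was not tested.

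Replicate numbers were not taken as pairs in the main fits. The deviations of same-numbered libraries had correlations of 0.07, 0.47 and -0.01 over 197 sequences. APS replicates 1 and 2 correlated best with the control library of their own number, and APS replicate 3 did not. Deviations from a mean of 3 libraries depend on each other, so these correlations cannot settle whether the samples were paired. With the replicate block gga-miR-33-3p had a log2 fold change of -0.49 (edgeR, unadjusted p = 0.0893), gga-miR-33-5p of 0.015 and gga-miR-122-5p of 0.084, the arm ratio of gga-miR-33 a difference of 0.50 (limma, adjusted p = 0.537), and 60 sequences an unadjusted and 0 an adjusted p under 0.05. With 50 to 79 passenger counts per library, depth limits what can be said of the arm ratio, and with 0 to 3 counts it leaves the rare forms without a readable difference.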
